A study of Homo sapiens with 12 samples.

Results

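Fatty acids are the main fuel of the adult heart, and 34 genes of their uptake, activation, mitochondrial import and oxidation were followed in cardiomyocytes derived from human embryonic stem cells. They were chosen by name from the 60583 gene names of the count table, and all 34 had counts in every library. The cells were cardiomyocytes of RUES2, an established human embryonic stem cell line, wild type throughout and taken at day 50 of differentiation. They were kept for 3 days on electrospun fibre scaffolds in RPMI medium with B27 supplement and insulin. One scaffold was 8% polyvinyl alcohol (PVA), the non-conductive control. The other was PVA with 9.75% (w/w) of the conducting polymer blend PEDOT:PSS (PEDOT below). Each scaffold had 3 biological replicates, numbered 1 to 3, and each replicate had 2 technical libraries, which gave 12 libraries of ribodepleted total RNA. The series asked whether the conductive scaffold changes cardiac gene expression. The labels name 1 line, so the values describe cells of 1 genetic background.

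Lipoprotein lipase (LPL) releases fatty acids from circulating triglyceride, and the transporter CD36 takes fatty acids into the cardiomyocyte. In the cell, a fatty acid is carried by FABP3 and is joined to coenzyme A by acyl-CoA synthetases. CPT1, at the outer mitochondrial membrane, hands the acyl group to carnitine, SLC25A20 moves acylcarnitine across the inner membrane, and CPT2 returns the group to coenzyme A. Inside, acyl-CoA dehydrogenases, a hydratase, a hydroxyacyl-CoA dehydrogenase and a thiolase shorten the chain by repeated rounds, and electrons leave through ETF and its dehydrogenase ETFDH. Fetal hearts rely more on glucose and lactate, and oxidation genes rise as heart muscle matures, which is why they are read as marks of maturity in stem cell-derived cardiomyocytes.

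Library totals were 19.1 to 30.95 M counts, and the 2 technical libraries of a replicate were summed to 6 sums of 44.5 to 57.5 M, 3 per scaffold. The 34 genes took 0.354% to 0.450% of the counts of a sum. Mitochondrially encoded genes took 4.01% and 4.10% in the 2 replicate-1 sums and 4.95% to 5.21% in the other 4. Cardiomyocyte markers, 12 genes such as TNNT2 and MYH7, summed to 59650 to 89474 CPM (counts scaled to the size of the library), so the labelled cell type was present in every sum. Fibroblast markers (8 genes) were present too, at 817 to 6752 CPM. Markers of other cells known for taking up or storing fat were low: adipocyte markers summed to 10.1 to 12.5 CPM with CIDEC at 0, endothelial markers to 14.3 to 24.2 CPM and macrophage markers to 2.26 to 4.87 CPM. In bulk RNA, fewer cells of a type and less RNA per cell cannot be told apart.

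Most of the 34 genes differed between replicate numbers, and none was called between the scaffolds. On the TPM scale, which divides counts by exon length before scaling to the library, FABP3 stood highest at a mean of 1572 over the 6 sums. HADHA (361), HADHB (318), ACADVL (274), ECHS1 (202) and ACSL3 (198) followed. CPT1B, the muscle form of CPT1, was lowest at 1.19 TPM, against 78.5 for CPT1A, the form of liver and of fetal tissues. The CPT1B value is uncertain and may be too low. Of its exon bases, 66.4% are shared on the same strand with the readthrough gene CHKB-CPT1B, and reads matching both were left out of the counts. ACOT2 has a near-identical neighbour, ACOT1, so its count is uncertain as well.

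**Figure D1:**
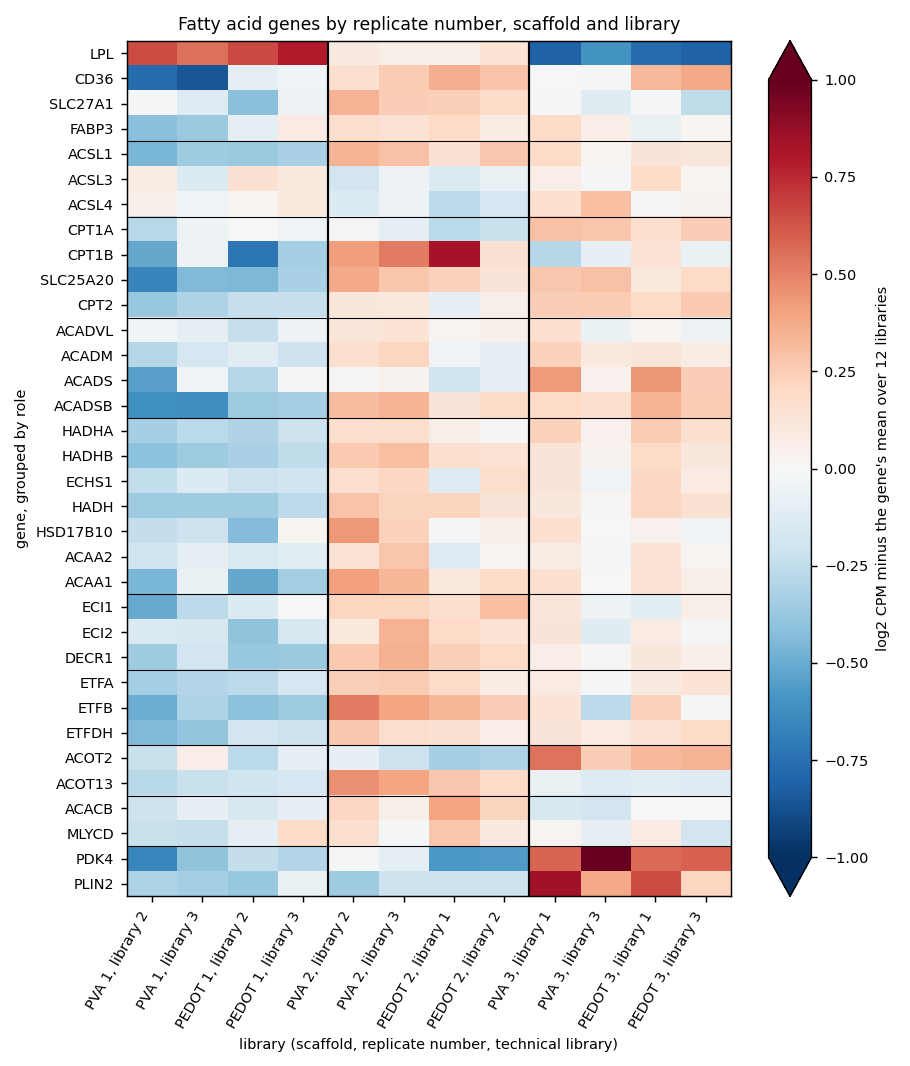
Log2 CPM of each of the 34 genes minus its mean over the 12 libraries, with genes as rows in the order of the steps and libraries as columns ordered by replicate number, then scaffold. The replicate-1 columns are mostly blue (lower) from CD36 to the ETF genes, LPL is red in replicate 1 and blue in replicate 3, and PDK4 and PLIN2 are red in replicate 3; values beyond 1 in either direction take the end colours.

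The genes that bring fatty acids to the cell did not share a direction between replicate numbers. LPL (chr8:19901717-19967259, plus strand, hg38), the lipase that frees fatty acids from lipoproteins, measured 37.4, 25.7 and 15.0 CPM in PVA replicates 1, 2 and 3. On PEDOT it measured 40.7, 26.0 and 14.2 CPM. The same-numbered sums lay close together and the 3 levels did not overlap. In edgeR's quasi-likelihood test with scaffold in the model, LPL was lower in replicate 2 than in replicate 1 by a log2 fold change of -0.60 ± 0.09 (SE; adjusted p = 2.1e-04) and lower in replicate 3 than in replicate 1 by -1.42 ± 0.10 (adjusted p = 4.4e-07), which leaves 0.374 of the replicate-1 level. It was the only one of the 34 genes called lower in replicate 2 than in 1, and the only one called lower in replicate 3 than in 1.

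CD36 (chr7:80369575-80679277, plus strand), the transporter of long-chain fatty acids, measured 71.9, 145.3 and 124.2 CPM in the PVA sums and 120.3, 155.9 and 160.1 CPM in the PEDOT sums, in the order of replicates 1, 2 and 3. PVA replicate 1 was far below the other 5 sums, and PEDOT replicate 1 was the next lowest. CD36 was higher in replicate 2 than in 1 by 0.69 ± 0.12 (SE) log2 units (adjusted p = 3.9e-04) and higher in replicate 3 than in 1 by 0.59 ± 0.11 (adjusted p = 0.0034). SLC27A1, a fatty acid transport protein, was higher in replicate 2 than in 1 by 0.38 ± 0.09 (adjusted p = 0.0061). FABP3, the cytosolic carrier of heart muscle, measured 403.5, 590.3 and 580.9 CPM in the PVA sums and 530.5, 577.2 and 520.5 CPM in the PEDOT sums. Only PVA replicate 1 stood apart for FABP3. It was not called over the 3 numbers together (adjusted p = 0.080), and its contrast of replicate 2 against 1, 0.33 ± 0.11 (adjusted p = 0.040), was lost in 12 of 26 other settings.

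Of the activating enzymes, ACSL1, the main synthetase of heart muscle oxidation, measured 147.3, 243.0 and 212.2 CPM in the PVA sums and 154.0, 224.9 and 212.6 CPM in the PEDOT sums. Both replicate-1 sums lay below all others, and ACSL1 was higher by 0.63 ± 0.08 in replicate 2 (adjusted p = 3.0e-05) and by 0.50 ± 0.08 in replicate 3 (adjusted p = 8.2e-04). ACSL3, which serves lipid droplet growth, was not called between any of the numbers. ACSL4, which prefers arachidonate, measured 157.9, 145.7 and 182.5 CPM in the PVA sums and 161.8, 132.2 and 156.7 CPM in the PEDOT sums. It was lowest in replicate 2 on both scaffolds, and its replicate-3 sums were higher than its replicate-2 sums by 0.29 ± 0.08 (adjusted p = 0.026). That call was lost in 6 of 26 other settings.

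In the carnitine shuttle, SLC25A20 measured 24.1, 44.3 and 43.1 CPM in the PVA sums and 27.2, 39.9 and 39.5 CPM in the PEDOT sums. The replicate-1 sums were the lowest on both scaffolds, and the gene was 1.64-fold higher in replicate 2 (adjusted p = 6.6e-05) and 1.61-fold higher in replicate 3 (adjusted p = 2.9e-04). CPT2 was higher by 0.33 ± 0.08 in replicate 2 (adjusted p = 0.0088) and by 0.53 ± 0.08 in replicate 3 (adjusted p = 7.4e-04). CPT1A, a form of the entry enzyme CPT1, measured 110.2, 118.8 and 150.9 CPM in the PVA sums and 121.9, 103.5 and 142.9 CPM in the PEDOT sums. It was high in replicate 3 alone: replicate 3 was above replicate 2 by 0.40 ± 0.09 (adjusted p = 0.0052) and above replicate 1 by 0.34 ± 0.09 (adjusted p = 0.020), while replicates 2 and 1 differed by -0.06 ± 0.09 (adjusted p = 0.64). CPT1B had 43 to 76 counts per sum, and its 0.93, 1.59 and 1.00 CPM in the PVA sums and 0.81, 1.64 and 1.17 CPM in the PEDOT sums were highest in replicate 2. CPT1B was 1.86-fold higher in replicate 2 than in 1 (0.89 ± 0.28, adjusted p = 0.028), a call lost in 8 other settings, and the replicate number as a whole was not called for it (adjusted p = 0.057).

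Most genes of mitochondrial oxidation were higher in replicates 2 and 3 than in 1. Of 18 genes (SLC25A20, CPT2, the acyl-CoA dehydrogenases, the hydratase-to-thiolase steps without the peroxisomal thiolase ACAA1, the isomerases, the reductase and the electron transfer genes), 15 were higher in replicate 2 than in 1 and 13 were higher in replicate 3 than in 1, and none was called lower in either. Their log2 fold changes ran from 0.15 to 0.76 (median 0.42) in the former and from 0.11 to 0.72 (median 0.41) in the latter. Over all 21298 genes tested, 13.3% were called higher in replicate 2 than in 1 and 6.79% in replicate 3 than in 1. Between replicates 3 and 2, 2 of the 18 genes were called, ACADS higher and ETFB lower (median -0.04), where 11.9% of all genes were called higher and 7.57% lower. The ACADS call was lost in 15 of 26 other settings.

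ACADSB (short/branched-chain acyl-CoA dehydrogenase) showed the contrast most plainly among the dehydrogenases, with 57.8, 110.5 and 100.2 CPM in the PVA sums and 69.3, 97.8 and 108.8 CPM in the PEDOT sums. It was 1.64-fold higher in replicate 2 (adjusted p = 5.8e-05) and 1.65-fold higher in replicate 3 (adjusted p = 1.9e-04) than in replicate 1. ACADM, the medium-chain enzyme, was higher in both by 0.25 ± 0.09 (adjusted p = 0.044) and 0.33 ± 0.09 (adjusted p = 0.024), calls that were lost in 13 and 7 of 26 other settings. ACADS, the short-chain enzyme, was higher in replicate 3 by 0.52 ± 0.12 (adjusted p = 0.0091). ACADVL, the very-long-chain enzyme that starts oxidation of the commonest dietary fatty acids, measured 308.2, 347.7 and 333.2 CPM in the PVA sums and 291.4, 324.6 and 314.4 CPM in the PEDOT sums. Its range over all 6 sums was narrow, and no contrast between its numbers was called (adjusted p = 0.24 over the 3 numbers).

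HADHA and HADHB encode the alpha and beta subunits of the trifunctional protein, which carries out the last 3 steps on long chains, and their starts lie head to head on chromosome 2. HADHA (chr2:26190635-26244672, minus strand) measured 306.0, 425.0 and 417.3 CPM in the PVA sums and 316.1, 383.5 and 434.8 CPM in the PEDOT sums. HADHB (chr2:26243170-26290465, plus strand) measured 250.7, 397.6 and 346.8 CPM in the PVA sums and 267.8, 361.0 and 363.9 CPM in the PEDOT sums. Both subunits were lowest in replicate 1 on both scaffolds. HADHA was higher by 0.38 ± 0.08 in replicate 2 (adjusted p = 0.0035) and 0.45 ± 0.08 in replicate 3 (adjusted p = 0.0024), and HADHB by 0.55 ± 0.08 (adjusted p = 2.0e-04) and 0.46 ± 0.08 (adjusted p = 0.0025).

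The 2 RefSeq start sites of this pair (GRCh38.p14) lie 307 bases apart, and the 250 bases before the HADHB start fall between them. The stretch is shown because the genes of both subunits, each lowest in replicate 1, start at its sides. It is printed on the HADHB strand, chr2:26244689-26244938, and is 69.2% G or C. The HADHB span given above begins before this RefSeq start, so the stretch lies inside that span.
HADHB: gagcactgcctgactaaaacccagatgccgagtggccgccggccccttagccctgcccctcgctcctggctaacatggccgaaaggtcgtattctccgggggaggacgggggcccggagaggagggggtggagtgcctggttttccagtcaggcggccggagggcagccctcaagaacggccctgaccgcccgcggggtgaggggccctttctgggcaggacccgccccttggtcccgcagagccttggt

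HADH, the short-chain hydroxyacyl-CoA dehydrogenase, was higher by 0.54 ± 0.08 in replicate 2 and 0.46 ± 0.08 in replicate 3, and ECHS1, the hydratase, by 0.30 ± 0.08 in each (adjusted p from 1.5e-04 to 0.030 for the 4 contrasts). The call of ECHS1 in replicate 3 was lost in 10 of 26 other settings. HSD17B10, which acts on branched-chain and short-chain substrates, measured 25.1, 36.5 and 31.04 CPM in the PVA sums and 26.0, 29.3 and 29.4 CPM in the PEDOT sums. It was called higher in replicate 2 than in 1, at 0.36 ± 0.10 (adjusted p = 0.015), but not in replicate 3 (adjusted p = 0.14). The call in replicate 2 was lost in 4 of 26 other settings. ACAA2, the mitochondrial thiolase, measured 100.1, 129.4 and 113.6 CPM in the PVA sums and 101.6, 106.1 and 117.6 CPM in the PEDOT sums, and was not called (adjusted p = 0.13 over the 3 numbers). ACAA1, the thiolase of peroxisomes, measured 36.9, 57.6 and 47.4 CPM in the PVA sums and 33.3, 49.04 and 47.99 CPM in the PEDOT sums, lowest in replicate 1 on both scaffolds, and was higher by 0.60 ± 0.09 in replicate 2 (adjusted p = 1.1e-04) and 0.44 ± 0.09 in replicate 3 (adjusted p = 0.0035).

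For unsaturated fatty acids, the isomerases ECI1 and ECI2 and the dienoyl-CoA reductase DECR1 were all higher in replicate 2, by 0.44, 0.41 and 0.59, and only DECR1 was called in replicate 3, at 0.39 ± 0.08 (adjusted p = 0.0044). The 3 electron transfer genes were called higher in both. ETFA was higher by 0.45 in replicate 2 and 0.34 in replicate 3, ETFB by 0.76 and 0.44, and ETFDH, which passes the electrons to ubiquinone, by 0.46 and 0.44. ETFDH measured 70.8, 109.6 and 101.8 CPM in the PVA sums and 82.4, 100.8 and 106.4 CPM in the PEDOT sums, so both replicate-1 sums lay below the other 4. ETFB was also called lower in replicate 3 than in replicate 2, by -0.33 ± 0.10 (adjusted p = 0.036), a call lost in 9 of 26 other settings.

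The thioesterases, which split acyl-CoA again, diverged. ACOT13 measured 39.6, 63.2 and 43.9 CPM in the PVA sums and 41.3, 54.8 and 43.4 CPM in the PEDOT sums, high in replicate 2 alone. ACOT2, in the mitochondrial matrix, measured 36.1, 34.4 and 50.8 CPM in the PVA sums and 34.01, 30.4 and 48.2 CPM in the PEDOT sums, high in replicate 3 alone (replicate 3 against 2: 0.61 ± 0.08, adjusted p = 1.3e-04). ACACB, which makes the malonyl-CoA that inhibits CPT1, measured 219.7, 265.0 and 215.8 CPM in the PVA sums and 223.3, 299.1 and 243.0 CPM in the PEDOT sums, highest in replicate 2 on both scaffolds, and was higher in replicate 2 than in 1 by 0.35 ± 0.08 (adjusted p = 0.0045). MLYCD, which breaks malonyl-CoA down, measured 58.4, 71.1 and 67.03 CPM in the PVA sums and 71.3, 76.9 and 66.01 CPM in the PEDOT sums, and was not called (adjusted p = 0.19 over the 3 numbers).

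PDK4 and PLIN2 were high in replicate 3. PDK4 (chr7:95583499-95596516, minus strand) inhibits pyruvate dehydrogenase and so spares glucose. It measured 48.2, 66.9 and 124.8 CPM in the PVA sums and 57.7, 46.5 and 104.2 CPM in the PEDOT sums. The 2 replicate-3 sums lay above the other 4. It was 2.14-fold higher in replicate 3 than in 1 (log2 fold change 1.10 ± 0.13, adjusted p = 6.8e-05) and 2.03-fold higher than in replicate 2 (adjusted p = 8.0e-05), while replicates 2 and 1 differed by 0.08 ± 0.13 (adjusted p = 0.72).

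PLIN2 (chr9:19108375-19149290, minus strand), which coats lipid droplets, measured 56.2, 58.3 and 109.5 CPM in the PVA sums and 60.9, 60.01 and 95.5 CPM in the PEDOT sums. Its replicate-3 sums also lay above the other 4, and it was 1.75-fold higher in replicate 3 than in 1 (adjusted p = 2.9e-05) and 1.73-fold higher than in replicate 2 (adjusted p = 2.1e-05). Some technical libraries of replicate 3 differed from each other. On PVA they measured 104.4 and 148.2 CPM of PDK4 and 125.3 and 91.2 CPM of PLIN2, and on PEDOT 103.0 and 105.0 CPM of PDK4 and 109.9 and 81.2 CPM of PLIN2. Each of these libraries was above every library of replicates 1 and 2 for its gene.

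The 250 bases before the RefSeq start sites of these genes are shown because these genes had the largest differences of replicate 3 above replicate 1 among the 34. The PDK4 stretch is chr7:95596517-95596766 and the PLIN2 stretch is chr9:19127493-19127742, both read on the minus strand of GRCh38.p14. The PLIN2 span given above reaches beyond this RefSeq start, so the PLIN2 stretch lies inside that span. They are 62.8% and 78.0% G or C.
PDK4: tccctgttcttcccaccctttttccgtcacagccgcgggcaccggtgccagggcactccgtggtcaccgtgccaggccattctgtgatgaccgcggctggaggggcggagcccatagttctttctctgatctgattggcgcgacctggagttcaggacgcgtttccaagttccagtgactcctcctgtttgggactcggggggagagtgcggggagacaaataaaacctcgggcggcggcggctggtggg
PLIN2: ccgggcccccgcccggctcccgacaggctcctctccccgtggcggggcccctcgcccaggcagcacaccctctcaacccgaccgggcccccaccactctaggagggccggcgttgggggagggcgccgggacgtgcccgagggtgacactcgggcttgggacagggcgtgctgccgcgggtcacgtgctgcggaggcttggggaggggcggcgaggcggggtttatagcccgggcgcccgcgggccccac

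Promoter windows of 300 bases (250 before to 50 after the RefSeq start) were searched on both strands for motifs. The first was the PPAR-RXR direct repeat, bound by pairs of RXR and a fatty acid-sensing PPAR receptor. It holds 2 copies of AGGTCA with 1 base of any kind between them. The second was the estrogen-related receptor element TCAAGGTCA. Neither was found in the windows of the 29 genes that had an entry, PDK4 and PLIN2 included, so no base is printed in capitals. The motifs occurred in 0.022% and 0.359% of 27305 promoter windows. At such low rates none would be likely in any 29 windows, so the search cannot tell whether these genes are targets. The second element ends in 1 copy of AGGTCA, so the motifs overlap in their letters.

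**Figure D2:**
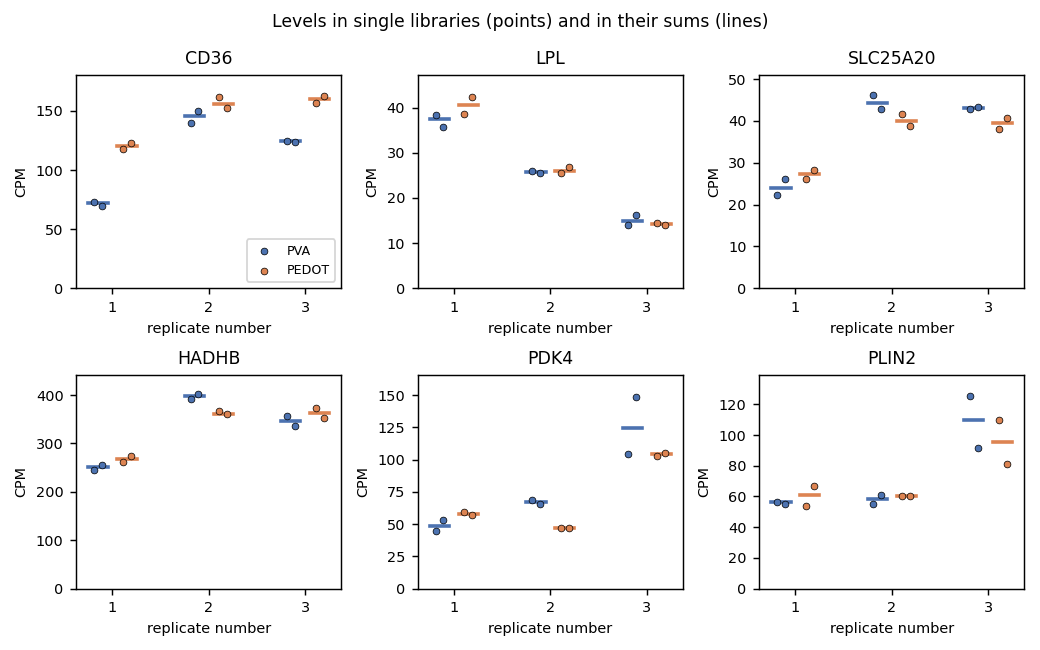
CPM of 6 of the genes by replicate number, with each technical library as a point, the sum of a replicate's 2 libraries as a line, and PVA in blue and PEDOT in orange; each vertical axis starts at 0. LPL is at 37.4 and 40.7 CPM in replicate 1 and at 15.0 and 14.2 CPM in replicate 3, PDK4 and PLIN2 are high in replicate 3, and CD36 in replicate 1 shows 71.9 CPM on PVA and 120.3 CPM on PEDOT.

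Counted together, 28 of the 34 genes (82.4%) differed between the 3 replicate numbers at an adjusted p under 0.05 (edgeR quasi-likelihood F test), against 31.8% of all genes tested. Among genes with a mean of at least 10 CPM the share was 41.3%, and 28 of the 33 members at that level (84.8%) were called. The 6 not called were FABP3, ACSL3, CPT1B, ACADVL, ACAA2 and MLYCD. Replicate 2 against 1 gave 23 members higher and 1 lower (median 0.37), where 13.3% of all genes were higher and 15.7% lower. Replicate 3 against 1 gave 20 higher and 1 lower (median 0.34), where 6.79% of all genes were higher and 6.42% lower. Replicate 3 against 2 gave 6 higher and 5 lower (median -0.08), where 11.9% and 7.57% of all genes were. Both replicate-1 sums lay below all other 4 in 22 members and above them in 1, LPL; below occurred in 16.9% of all genes. The median over all genes tested was -0.004 for replicate 2 against 1 and -0.01 for replicate 3 against 1.

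**Figure D3:**
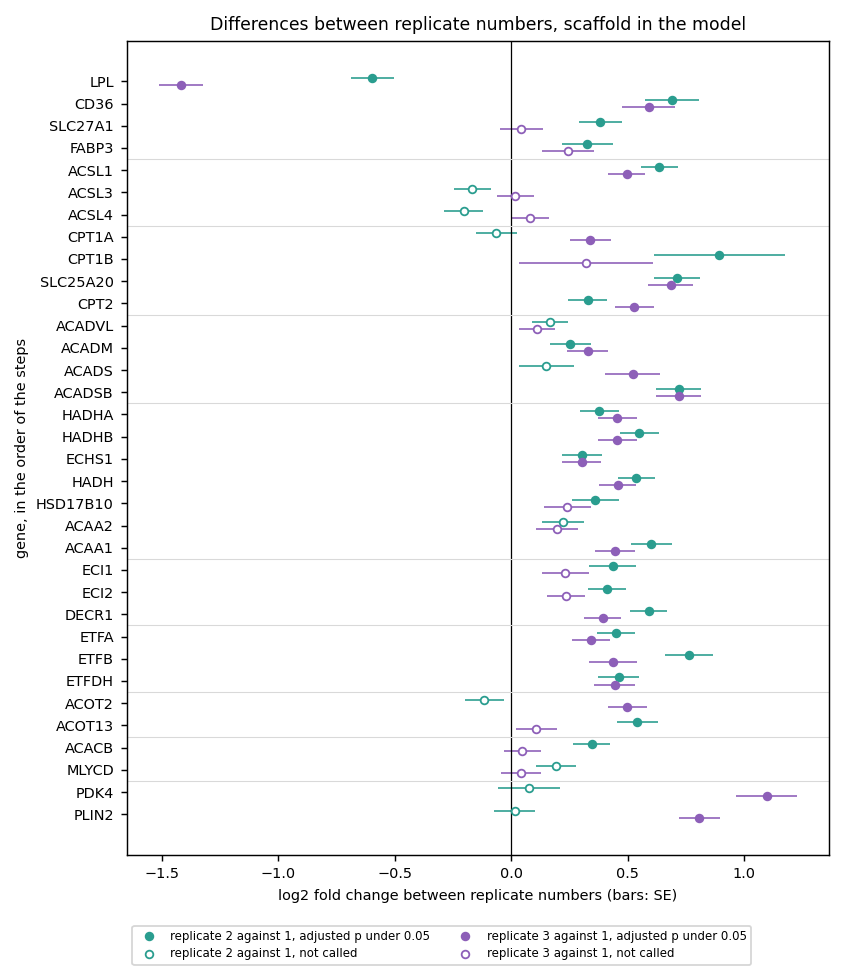
Log2 fold changes of replicate 2 against 1 (green) and replicate 3 against 1 (purple) for each of the 34 genes, with SE bars; filled points passed an adjusted p of 0.05. Most filled points lie right of 0, above replicate 1, with medians of 0.37 and 0.34 over all 34 genes. LPL lies at -0.60 and -1.42, and PDK4 and PLIN2 stand at 1.10 and 0.81 for replicate 3 alone.

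Cell type markers moved with the replicate numbers too. Cardiomyocyte markers summed to 59650, 76963 and 80548 CPM in the PVA sums and 68980, 89474 and 84348 CPM in the PEDOT sums for replicates 1, 2 and 3. Of the 12, 8 were higher and 2 lower in replicate 2 than in 1 (median 0.38), and 4 were higher in replicate 3 than in 1 (median 0.28). Fibroblast markers summed to 3693, 817 and 3222 CPM in the PVA sums and 6752, 842 and 3620 CPM in the PEDOT sums, and of the 8, 6 were lower and 1 higher in replicate 2 than in 1 (median -2.51). Smooth muscle and pericyte markers ran from 1006 to 2184 CPM, lowest in replicate 2, and epicardial markers from 45.7 to 132 CPM. Per 100 counts of the cardiomyocyte markers, the 34 genes had 5.72, 5.88 and 5.47 counts on PVA and 5.40, 4.75 and 5.22 on PEDOT, a ratio chosen after the values were seen. TTN and MYH6 made up 81.4% to 84.1% of those marker counts. Against the other 10 markers the ratio was 34.7, 33.8 and 33.6 on PVA and 29.04, 29.9 and 31.9 on PEDOT, so replicate 1 was highest on PVA and lowest on PEDOT. Between the scaffolds, the 3 PEDOT values lay below the 3 PVA values in both ratios. The summed cardiomyocyte markers were higher on PEDOT for each replicate number, and the cause of this separation was not tested. The part of cell composition in the differences between replicate numbers was not tested further. The labels do not say what a replicate number shares between the scaffolds, such as a differentiation or a day.

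Over the 12 libraries most of the 34 genes varied together. Pearson's r of a gene with the mean of the others was 0.98 for HADHB, 0.97 for HADHA, 0.96 for ACADSB, ACSL1 and HADH, and below 0 for LPL (-0.74), ACSL3 (-0.29) and ACSL4 (-0.22). The closest pair was HADHB and HADH (r = 0.99) and the most opposed was CPT2 and LPL (r = -0.91). Outside the members, among 11758 genes of at least 5 CPM, the 5 with the pattern most like their mean were ATP5F1A (r = 0.988), a subunit of ATP synthase, UQCRC1 (0.986), a subunit of respiratory complex III, ECH1 (0.982), an auxiliary enoyl-CoA isomerase, GHITM (0.981), an inner membrane protein, and FH (0.981), fumarase of the TCA cycle. These correlations describe 12 libraries that share replicate numbers, technical pairs and scaling, and carry no test.

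Between the scaffolds, 0 of the 34 genes were called by edgeR's quasi-likelihood test, where 0% of all genes were. None reached an unadjusted p under 0.05 either, where 0.892% of all genes did. DESeq2 and limma-voom called 0 members too. The smallest unadjusted p was 0.21 (CD36; adjusted p = 1.00). The median log2 fold change of PEDOT against PVA was -0.03 (-0.006 over all genes), with 13 members above 0. In no member did the 3 PEDOT sums lie entirely above or below the 3 PVA sums, which occurred in 4.60% of all genes, 2.28% above and 2.31% below. In the 18 oxidation genes the largest value in either direction was 0.13.

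After CD36, the members of smallest p were MLYCD, ACADVL, ACACB, ACSL4 and HSD17B10, and their values between the scaffolds were small. MLYCD averaged 65.5 ± 6.5 CPM in the PVA sums and 71.4 ± 5.4 in the PEDOT sums (SD, n = 3), and its log2 fold change was 0.12 ± 0.10 (SE). ACADVL had 329.7 ± 19.99 and 310.1 ± 17.02 CPM, at -0.09 ± 0.09. ACACB had 233.5 ± 27.3 and 255.2 ± 39.3 CPM, at 0.13 ± 0.14. HSD17B10 had 30.9 ± 5.7 and 28.2 ± 1.9 CPM, at -0.13 ± 0.15, and ACSL4 differed by -0.11 ± 0.12. Each of these differences was close to or below its standard error.

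Replicate numbers took a median of 91.1% of the variance of a member over the 6 sums and the scaffold 1.39%, against 70.4% and 6.10% over all genes. With the replicate number as a block, which removes that part, 0 of the 34 genes were called, where 0.268% of all genes were, and 1 member reached an unadjusted p under 0.05, where 8.32% did. In that fit the 95% interval of the difference between scaffolds stayed within 1.5-fold in either direction for 33 of 34 members. HADHA, for example, had an interval of -0.16 to 0.13, ACSL1 of -0.15 to 0.12, CPT1A of -0.20 to 0.11 and LPL of -0.14 to 0.19 on the log2 scale. Without the block the interval stayed within 1.5-fold for 24 members. These intervals bound the difference but do not show that the scaffolds act alike.

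The members of smallest p in the blocked fit after CD36 were ACACB, MLYCD, ACAA1, ACOT2 and PDK4. ACACB was above PVA on PEDOT in all 3 pairs, by 0.02, 0.17 and 0.17 for pairs 1, 2 and 3 (adjusted p = 0.67 with the block). ACOT2 was below in all 3 pairs, by -0.09, -0.18 and -0.08 (adjusted p = 0.74), as were SLC27A1 and ACADVL. ACAA1 (-0.15, -0.23 and 0.02) and MLYCD (0.29, 0.11 and -0.02) did not keep one sign. PDK4 went both ways, at 0.26, -0.52 and -0.26, and without replicate pair 1 its blocked value was -0.39 (adjusted p = 0.012). In all, 5 members (14.7%) had one sign in the 3 pairs, 2 higher and 3 lower, against 28.9% of all genes tested.

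The pairs themselves differed. PEDOT was above PVA in 26 of 34 members in pair 1 (median 0.07), in 7 in pair 2 (median -0.13) and in 18 in pair 3 (median 0.01). Among all genes of at least 10 CPM, 53.7%, 31.2% and 49.1% were above in pairs 1, 2 and 3, with medians of 0.01, -0.07 and -0.002. With the block, 1 of 12 cardiomyocyte markers (MYH7) was called higher on PEDOT and 2 of 8 smooth muscle and pericyte markers (RGS5 and ACTA2) lower, and no member was called with them. In 25 members the difference between the scaffolds was below the median difference between technical libraries of the same replicate. The former is fitted over 3 sums per scaffold and the latter compares single libraries. The count therefore does not show that scaffold differences lay within technical noise.

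**Figure D4:**
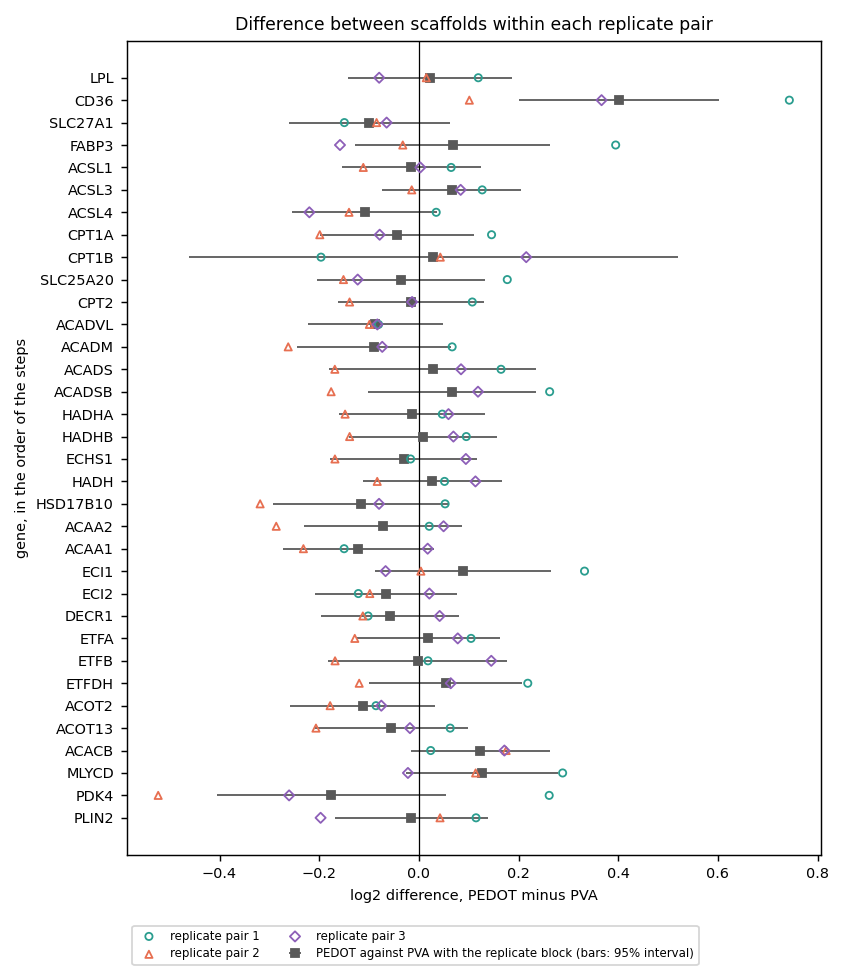
Log2 difference of PEDOT minus PVA for each of the 34 genes, within replicate pair 1 (circles), 2 (triangles) and 3 (diamonds), with the fitted difference with the replicate block as a square and its 95% interval as a bar. The squares lie near 0 apart from CD36, whose interval runs from 0.20 to 0.60; triangles of pair 2 lie mostly left of 0.

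CD36 was the member with the largest difference between scaffolds. It averaged 113.8 ± 37.8 CPM in the PVA sums and 145.4 ± 21.9 in the PEDOT sums (SD, n = 3), and the unblocked fit gave a log2 fold change of 0.35 ± 0.26 (SE). PEDOT was above PVA in 3 of 3 pairs, by 0.74, 0.10 and 0.37 for pairs 1, 2 and 3. With the block the value was 0.40 ± 0.09 (unadjusted p = 7.6e-04, adjusted p = 0.12), so it was not called over all genes. Without PVA replicate 1 the unblocked value was 0.11, and in the blocked fit without pair 3 it was 0.42 with an adjusted p of 0.0046.

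The pair differences of CD36 were also set against the spread between technical libraries, in an edgeR test of the scaffold-by-replicate term on the 12 libraries. With 1 biological replicate per scaffold and number, any difference between replicates can pass this test, so it does not show that the effect of the scaffold varied. CD36 was the only member called (adjusted p = 0.034), where 0.282% of all genes were. Its adjusted p ran from 3.6e-04 to 0.060 over the other scalings and filters, and the call was lost with upper-quartile factors (0.052) and with a mean CPM of at least 5 (0.060). An unadjusted p under 0.05 was reached by 9 of the 34 genes and by 10.4% of all genes. The next were FABP3 (adjusted p = 0.096; pair differences 0.39, -0.03 and -0.16), PDK4 (adjusted p = 0.17), ACADSB (adjusted p = 0.19; 0.26, -0.18 and 0.12), ETFDH (adjusted p = 0.36; 0.22, -0.12 and 0.06) and ACAA2 (adjusted p = 0.42; 0.02, -0.29 and 0.05). Technical libraries lay close together for CD36, at 73.4 and 69.3 CPM in PVA replicate 1 and 117.6 and 122.9 CPM in PEDOT replicate 1. In that pair fibroblast markers were at 3693 CPM on the control scaffold and 6752 CPM on the conductive one, and cardiomyocyte markers at 59650 and 68980 CPM. Cardiomyocyte markers were higher on PEDOT in the other 2 pairs too, as CD36 was, and in the unblocked fit 10 of 12 had a log2 fold change above 0 (median 0.19). The part of either marker list in the CD36 difference was not tested. Endothelial, adipocyte and macrophage markers, of cells known to express CD36, stayed at or below 24.2 CPM summed in every sum. The part of these cells in the CD36 difference was not tested either.

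Isoforms known to differ between tissues or between fetal and adult heart were compared as shares of counts per kilobase, by an exact permutation test over 3 against 3 sums, whose smallest possible two-sided p is 0.1. CPT1B made up 1.49% ± 0.54 of CPT1A plus CPT1B on PVA and 1.61% ± 0.76 on PEDOT (SD, n = 3; exact p = 0.9). ACSL1 made up 30.7% ± 6.0 of ACSL1, ACSL3 and ACSL4 on PVA and 30.4% ± 5.8 on PEDOT (exact p = 0.8), with 24.7% and 24.3% in the 2 replicate-1 sums and 30.7% to 36.8% in the others. PDK4 made up 18.5% ± 6.5 of the 4 pyruvate dehydrogenase kinases on PVA and 15.7% ± 5.5 on PEDOT (exact p = 0.6). ACACB made up 68.4% ± 2.4 of ACACA plus ACACB on PVA and 70.7% ± 4.7 on PEDOT (exact p = 0.6). Over the 4 shares every adjusted p was 0.9, and each difference was smaller than the spread between sums. The CPT1B share carries the uncertainty of its count given above and may likewise be too low.

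Other genes around the pathway were read from lists, with no gene called between the scaffolds in any of them, blocked or not. Of 17 TCA cycle genes, 11 were higher in replicate 2 than in 1 and 10 in replicate 3 than in 1, and none was called lower (medians 0.27 and 0.27). FH, for example, was higher by 0.47 (adjusted p = 8.6e-04) and 0.42 (adjusted p = 0.0052). Of 17 peroxisomal genes, 7 were higher and 2 lower in replicate 2 (median 0.24), and 4 were higher and 1 lower in replicate 3 (median 0.20). PHYH, which starts alpha-oxidation, was among the higher in both, at 0.31 and 0.31. Of 22 other mitochondrial acyl-CoA genes, 11 were higher in replicate 2 and none lower (median 0.21), and 1 was higher and 1 lower in replicate 3 (median 0.17). IVD, of leucine breakdown, was higher by 0.37 in replicate 2 (adjusted p = 0.0029).

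Of 14 genes of fatty acid synthesis, 2 were higher and 7 lower in replicate 2 than in 1 (median -0.18), where 13.3% and 15.7% of all genes were, and 2 were higher and 2 lower in replicate 3 than in 1 (median -0.06). The desaturase gene SCD was lower by -0.58 (adjusted p = 1.6e-04), while the elongase ELOVL6 was higher by 0.55 (adjusted p = 2.6e-04). Of 25 regulators, 10 were higher and 3 lower in replicate 2 (median 0.18), and 3 were higher and none lower in replicate 3 (median 0.13). PPARA, the receptor that drives oxidation genes, was not called (0.17, adjusted p = 0.13), while RXRG was lower in replicate 2 by -0.38 (adjusted p = 0.0042) and higher in replicate 3 by 0.40 (adjusted p = 0.0068). Of 17 other carriers and activating enzymes, 3 were higher and 4 lower in replicate 2 (median 0.01), and 1 was higher and 2 lower in replicate 3 (median -0.02). SLC27A6, a transporter of heart muscle, was among the higher at 0.84 (adjusted p = 7.7e-05). Between scaffolds the blocked fit gave SLC27A6 0.43 ± 0.10 (unadjusted p = 5.2e-04, adjusted p = 0.10), with 0.58, 0.42 and 0.29 in pairs 1, 2 and 3. SLC27A3 went the other way, at -0.33 ± 0.08 (adjusted p = 0.14), and neither was called. Of 16 other lipid droplet genes, 4 were higher and 2 lower in replicate 2 (median 0.06), and 2 were higher and 2 lower in replicate 3 (median 0.03). HILPDA was lower in replicate 2 by -1.50 (adjusted p = 2.0e-05) and G0S2, an inhibitor of lipolysis, lower in replicate 3 than in 1 by -0.83 (adjusted p = 1.2e-05).

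Of 16 genes of pyruvate oxidation and ketone use, 5 were higher in replicate 2 and none lower (median 0.22), and 3 were higher in replicate 3 and none lower (median 0.17). MPC1, of the mitochondrial pyruvate carrier, was higher by 0.49 in replicate 2 (adjusted p = 0.0018). A list of 22 hypoxia-responsive genes was read as well, of which ANGPTL4, HILPDA and PDK1 also stand in the lists above. Of the 22, 15 were lower and 1 higher in replicate 2 (median -0.62), and 6 were lower and 1 higher in replicate 3 (median -0.24). NDRG1 was lower by -1.69 (adjusted p = 2.6e-08) and ADM was the one higher, by 1.66 (adjusted p = 5.4e-09). Between scaffolds the hypoxia list had a median of 0.21 with 22 of 22 genes above 0, where 10249 of 21298 genes were, and none called. In the blocked fit 13 of the 22 reached an unadjusted p under 0.05, where 8.32% of all genes did, and none was called. The medians of the hypoxia list in pairs 1, 2 and 3 were 0.15, 0.65 and 0.04, so pair 2 had most of the difference. The technical libraries differed by a median of 0.50 in this list. The smallest adjusted p among all these lists in the blocked fit was 0.072, for NDRG1 (0.40 ± 0.08).

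**Figure D5:**
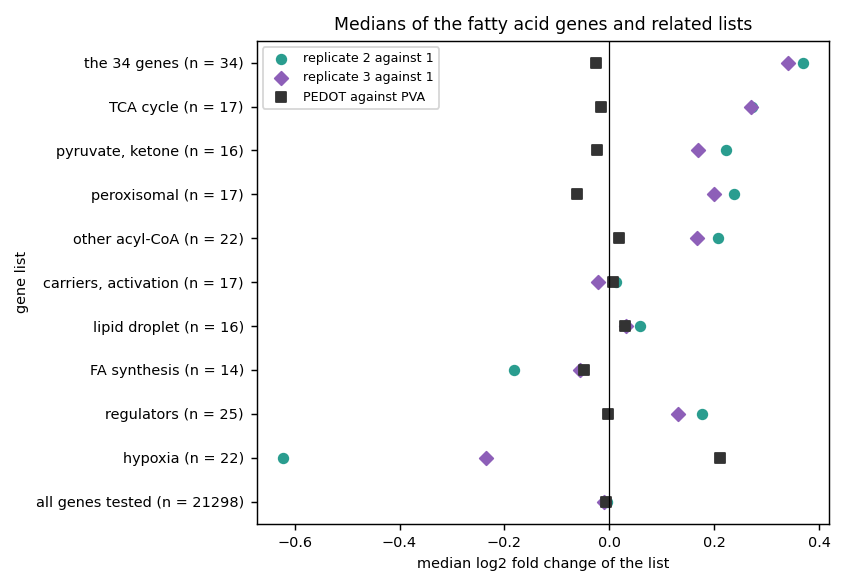
Median log2 fold change of the 34 genes, of the other gene lists and of all genes tested, for replicate 2 against 1 (circles), replicate 3 against 1 (diamonds) and PEDOT against PVA (squares). The 34 genes have medians of 0.37 and 0.34 between replicate numbers and -0.03 between scaffolds, TCA cycle genes 0.27 and 0.27, and hypoxia genes -0.62 and -0.24.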

How the data were processed

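The authors deposited whole-number counts of read pairs, summed by gene name and not normalized, for 12 libraries; counting used featureCounts 2.0.1 in paired-end, reversely stranded mode on GENCODE release 33 of hg38, per the file headers. Reads matching several genes were not counted, as no option for them stands in the command. Tools named in the submitters' processing notes are STAR, FastQC, edgeR, DESeq2 and featureCounts, with build hg38; the aligner's version is not given in the sources used here. RNA was extracted after trypsin with QIAzol and a column and was ribodepleted, per the labels' protocols. Exon lengths for TPM and coordinates are those of the deposited table.

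Technical libraries differed by more than sampling noise (chi-square per gene 6.67 to 16.96) and were summed to 6 sums, 3 against 3. Nothing in the labels says that biological replicates came from separate differentiations, so the p-values here reflect the spread of these samples alone, which may be technical. The filter filterByExpr (minimum count 10, minimum total 15) left 21298 genes, among them all 34 members. After TMM scaling, models were fitted with edgeR 4.0.16 in R 4.3.3 (glmQLFit, glmQLFTest, two-sided, Benjamini-Hochberg over all genes tested, threshold 0.05). The fits were scaffold alone; scaffold with the replicate number as a block; replicate number with scaffold in the model; and, on the 12 libraries, scaffold by replicate, whose error is technical only. Standard errors were obtained by dividing a log2 fold change by the root of its F statistic. Log2 CPM used a prior count of 2. DESeq2 1.42.0 and limma 3.58.1 were alternatives. The fits were also run on simulated counts with known changes. The share of changes recovered is not given here, so that run does not tell how small a difference would be found.

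When each sum was centred on its scaffold's mean, sums of one number had correlations of 0.678, 0.703 and 0.503 across genes. Sums of unlike number had -0.609 to -0.005. The centring pushes values of unlike number below 0 on average where those of one number are positive, so the negative values add no separate support. The numbers were taken to pair the samples. This rests on the values, as no label states it.

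The 34 genes, the lists, the steps they were grouped by and the tests were chosen with earlier results of these data known. Per-sum values are given for the 6 members of smallest p in each of the 4 fits and for CD36, FABP3, CPT1A, CPT1B, ACADVL, HADHA, PDK4 and PLIN2; values of other members and of FH, SCD and the replicate-number results of listed genes were chosen after they were seen. In the lists, up to 3 genes of smallest p in the blocked fit were to be named, of which those with a called replicate-number value or of known role are printed. Promoter windows come from RefSeq tables of GRCh38.p14, where 29 of 34 members matched by symbol; ACAA1, CPT1B, DECR1, ETFDH and LPL had no entry.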

Additional observations from a re-analysis of the deposited data

Results flagged for a closer look

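HSD17B10 in technical library 2 of PEDOT replicate 1 measured 21.6 CPM, while the other 5 PEDOT libraries measured 28.6 to 30.2 CPM; its gap to the nearest was 0.805 of the whole range, above Dixon's critical value of 0.625 for 6 samples. It was the 1 such value in 68 groups of 6 libraries (34 genes on 2 scaffolds), and chance gives about 1 in 20 groups of independent samples. The 6 libraries are technical pairs of biological replicates, so neither the critical value nor that rate holds strictly here. The other library of PEDOT replicate 1 measured 29.7 CPM.

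For CD36, the scaffold-by-replicate term of edgeR had an adjusted p of 0.0336, with pair differences of 0.74, 0.10 and 0.37, PEDOT above PVA in 3 of 3 pairs. Its error is the spread between technical libraries only, with 1 biological replicate per scaffold and number, so it does not show that the effect of the scaffold varied. The value passed the threshold under 4 of the 6 other scalings and filters, and its cause was not tested.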

How the results depend on the processing

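No gene was called between scaffolds without the block in any scaling, filter, tool or set of replicates tried, and no member was. The replicate block raised the count over all genes from 0 to 57 and left 0 members called. Leaving out a replicate pair in the blocked fit gave 170, 22 and 284 genes (pairs 1, 2 and 3) and 0 to 1 members: PDK4 without pair 1 (adjusted p = 0.012) and CD36 without pair 3 (adjusted p = 0.0046). Leaving out a single library there gave 73, 22, 45, 28, 36 and 63 genes for the PVA libraries and 15, 4, 35, 63, 27 and 39 for the PEDOT libraries, in the order of replicate number, and 0 members. A further 7 blocked fits, chosen after seeing the data, gave 55 genes with DESeq2 size factors, 1 with upper-quartile factors, 37 with library size only, 389 with every gene that had a count, 1 with a mean CPM of at least 5, 97 with DESeq2 and 67 with limma-voom; the replicate block with every gene that had a count called 1 member, CD36 (adjusted p = 1.1e-05), and the other 6 called 0. The median of the members between scaffolds ran from -0.156 (without PVA replicate 1) to 0.075 over the sums left out. Of 1324 recomputed scaffold values of single members, 152 changed sign and 3 were called.

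The scaffold-by-replicate test called 60 genes and 1 member; upper-quartile factors left 0 members (CD36 adjusted p = 0.052), a mean CPM of at least 5 left 22 genes and 0 members (CD36 adjusted p = 0.060), and every gene that had a count gave 652 genes and 3 members (CD36, FABP3 and PDK4). The replicate-number test called 23 to 30 members over its settings. Of the member calls between numbers, 14 of 24 (replicate 2 against 1), 11 of 21 (3 against 1) and 4 of 11 (3 against 2) were called in all 26 other settings, and none reversed. The ACACB share differed by 2.32 percentage points between scaffolds and by -0.397 (without PEDOT replicate 2) to 3.99 (without PEDOT replicate 1) over the sums left out. Causes of these shifts were not tested. With 43 to 76 counts per sum, CPT1B had the widest interval of the blocked fit.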
